A study of Mus musculus with 6 samples.

Results

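The type II cadherins are a family of adhesion proteins that span the cell membrane, and their transcripts were followed here in the striatum of mice that overexpress Shank3. The 10 genes are Cdh6, Cdh7, Cdh8, Cdh9, Cdh10, Cdh11, Cdh12, Cdh18, Cdh20 and Cdh24, found by the symbols that GENCODE M21 gives to the Ensembl identifiers. They are 10 of the 46078 genes listed and 10 of the 17605 genes averaging 10 or more normalized reads over the 6 libraries, the genes tested. The family was selected on the normalized read counts of Cdh18, which separated the transgenic from the wild-type libraries. The Cdh18 difference is therefore described without a test, and it supports nothing below.

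Striatal RNA came from 3 Shank3 TG and 3 WT mice, all male, 12 weeks old and of the C57BL/6J strain, with 1 library per mouse. Shank3, a scaffold protein of excitatory synapses, is expressed in the TG mice from an EGFP-Shank3 transgene in addition to the endogenous gene, while WT mice carry no transgene. The cells in which the transgene is active are not given in the sources used here, apart from EGFP-Shank3 protein in the dorsal striatum. The comparison of TG with WT asks which striatal transcripts differ when Shank3 is in excess.

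Classical cadherins bind cadherins on the neighbouring cell through calcium-dependent repeats outside the cell, and catenins tie their tails to actin inside it. Each is made as a precursor, from which a protease such as furin removes a leading segment, and the new end of the protein then swaps a strand with its partner. Type I cadherins insert a single tryptophan into the partner, and type II cadherins insert a pair. In the brain, type II cadherins are expressed in overlapping sets by different neurons and take part in sorting cells, axons and synapses.

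The strand that swaps is shown first, since it carries the feature that defines the family. Below are the first 60 coding bases after the predicted furin site of 5 members, 5′ to 3′, from GENCODE M21 transcripts of GRCm38, with the tryptophan codons in capitals. Cdh18 and Cdh10 are shown because their values did not overlap between the genotypes, Cdh7 as the closest relative of Cdh18, Cdh6 as the closest relative of Cdh10, and Cdh24 as the least similar to Cdh18.
Cdh18: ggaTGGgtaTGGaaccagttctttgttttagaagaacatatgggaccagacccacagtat
Cdh7: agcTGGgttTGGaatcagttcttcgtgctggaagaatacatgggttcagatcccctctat
Cdh10: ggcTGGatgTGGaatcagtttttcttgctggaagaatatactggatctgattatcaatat
Cdh6: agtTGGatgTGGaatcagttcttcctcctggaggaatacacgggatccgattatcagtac
Cdh24: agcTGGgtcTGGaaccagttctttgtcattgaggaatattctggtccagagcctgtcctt

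Codons 2 and 4 of this window were TGG in all 10 members, and 26 of its 60 positions held the same base in all of them. The site was searched for just ahead of a tryptophan pair, so the presence of the pair was set by the search. Its bases also add to the shared positions. Over the whole coding sequence, the 45 pairs of members were between 53.8% (Cdh12 and Cdh24) and 70.3% (Cdh6 and Cdh10) identical, with a median of 61.0%. The closest relative of Cdh18 was Cdh7, at 64.0%, and its least similar was Cdh24, at 56.7%. How reads that match more than 1 gene were counted is not given in the sources used here.

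The libraries held between 27689589 and 36647626 reads on genes, and the correlation of log2 values between any 2 libraries was between 0.992 and 0.995. Shank3 (ENSMUSG00000022623) had 29890.9, 28308.5 and 26043.6 normalized read counts in TG replicates 1, 2 and 3 and 13807.1, 12918.4 and 13865.2 in WT replicates 1, 2 and 3, a log2 fold change of 1.05. Of all genes tested, only Shank3 passed an adjusted P value of 0.05 by limma (adjusted P = 7.04e-05). Markers of striatal spiny neurons were abundant, led per kb of exon by Penk and Ppp1r1b, and their 10 genes summed to between 98733 and 137631 in TG and between 120310 and 135158 in WT libraries. TG replicate 1 had the lowest spiny neuron sum and stood apart in choroid plexus markers, whose 10 genes summed to 15540 there, to 1991 and 648 in TG replicates 2 and 3 and to between 565 and 907 in WT libraries. All 9 choroid plexus markers tested had a higher mean in TG mice. Limma gave 0 of them an adjusted P value under 0.05, where 0.00568% of all genes tested had one. An unadjusted limma P value under 0.05 was found for 5 of the 9 markers, where 4.31% of all genes tested had one. Their groups did not overlap in 3 of the 9, where 5.06% of all genes tested were higher in TG without overlap. One of these 3, Tmem72, had 63.5, 6.74 and 5.84 normalized read counts in TG replicates 1, 2 and 3 and averaged 2.49 in WT mice. Tmem72 therefore reached the mean of 10 needed for testing only through TG replicate 1. TG replicate 1 was also highest in Zic1, Zic4 and Calb2, markers of regions around the striatum that are named for their values. They had 1041, 196 and 519 normalized read counts there, where the other 5 libraries had at most 470, 77.6 and 267. They come from lists of thalamus and of septum and globus pallidus markers. Of these, Slc17a6 (291, against 291 in WT replicate 2) and Lef1 (122, against 118 in WT replicate 1) were highest there by little. Prkcd and Zic2 were highest there too. Tcf7l2, Plekhg1, Lhx6, Nkx2-1, Gbx2, Lhx8 and Sox6 were not, and Rora and Pvalb were lowest there, with 1808 and 662. All 6 microglial markers had a lower mean in TG mice, and limma gave 0 of them an adjusted P value under 0.05. An unadjusted limma P value under 0.05 was found for 2 of the 6 markers, where 4.31% of all genes tested had one. Their groups did not overlap in 3 of the 6, where 10.1% of all genes tested did not overlap in either direction. Microglial markers summed to between 8232 and 8896 in TG and between 8958 and 9273 in WT libraries. The part of these markers in the values of the cadherins was not tested. Cortical markers summed to between 31473 and 43811 in TG and between 36377 and 41742 in WT libraries. Meningeal markers summed to between 2269 and 2858 in TG and between 2656 and 2849 in WT libraries, and endothelial markers to between 8694 and 8852 and between 7864 and 9495. In tissue of mixed cells, fewer cells of a type and less RNA per cell cannot be told apart.

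Cdh18, a cadherin of the central nervous system, had 538, 511 and 570 normalized read counts in TG replicates 1, 2 and 3. In WT replicates 1, 2 and 3 it had 390, 459 and 454. The lowest TG library lay 52.2 normalized read counts above the highest WT library. The mean was 540 ± 29.1 (SD, n = 3) in TG and 434 ± 38.3 (SD, n = 3) in WT mice, 24.3% higher in TG, a log2 fold change of 0.32 (fold changes are on the scale of log2(normalized read count + 1)). The difference was larger than the SD of 0.11 between mice of one genotype, but these are the values on which the family was selected.

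Before normalization, Cdh18 rested on 627, 455 and 585 reads in the TG libraries and 341, 491 and 462 in the WT libraries, so the read numbers overlapped and the separation appears once they are scaled for depth. When each library was left out, the Cdh18 log2 fold change lay between 0.24 (without WT replicate 1, its lowest library) and 0.36 (without WT replicate 2), and it was 0.32 without TG replicate 1. A zero-centred prior on fold changes, as DESeq2 offers, brought it to 0.17.

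**Figure D1:**
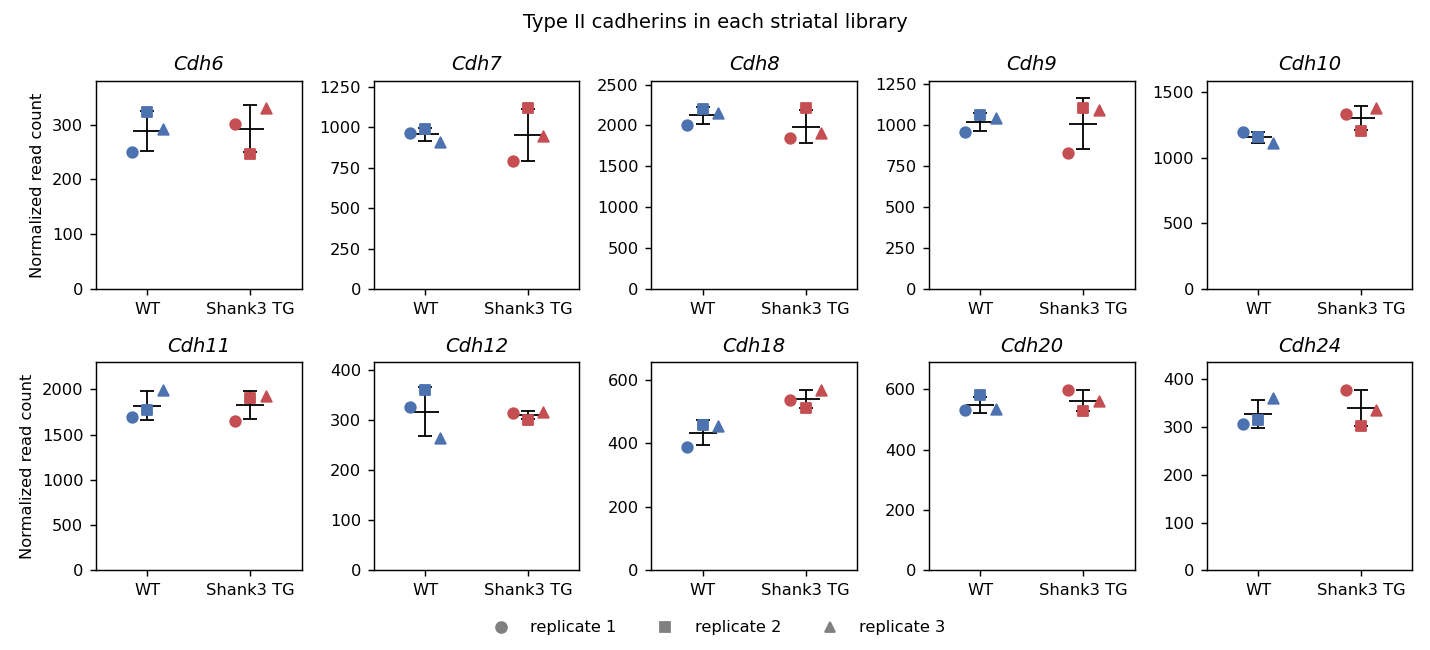
Normalized read count (vertical axis, from 0) of each of the 10 type II cadherins in the 3 WT and 3 Shank3 TG libraries, with symbols for replicates 1 to 3 and the mean ± SD as bars. The groups do not overlap for Cdh18 and Cdh10, and they overlap for the other 8 genes.

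Outside Cdh18, the family was spread around no difference. Of the other 9 members, 5 had a higher and 4 a lower mean in TG mice, their median log2 fold change was 0.0023, and 8 of the 9 differed by less than their own SD between mice of one genotype. By limma, 0 of the 9 passed an adjusted P value of 0.05 (adjusted P between 0.971 and 0.998), where 0.00568% of the genes tested did. That share is 1 gene, Shank3 itself. An unadjusted limma P value under 0.05 was found for 1 of the 9, where 4.31% of the genes tested had one. By edgeR, DESeq2 and limma-voom on the recovered reads, 0 of the 9 passed as well. The groups did not overlap in 1 of the 9 (11.1%), where they did not overlap in either direction in 10.1% of the genes tested and were higher in TG without overlap in 5.06%. Over all genes tested the median log2 fold change was -0.0018, with quartiles at -0.07 and 0.06. The 10 members together, Cdh18 included, summed to 9115 ± 474 normalized read counts (SD, n = 3) in TG and 8986 ± 316 (SD, n = 3) in WT mice. Of these sums, Cdh18 itself made up 540 in TG and 434 in WT mice, so most of their difference is that of the gene used for selection.

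**Figure D2:**
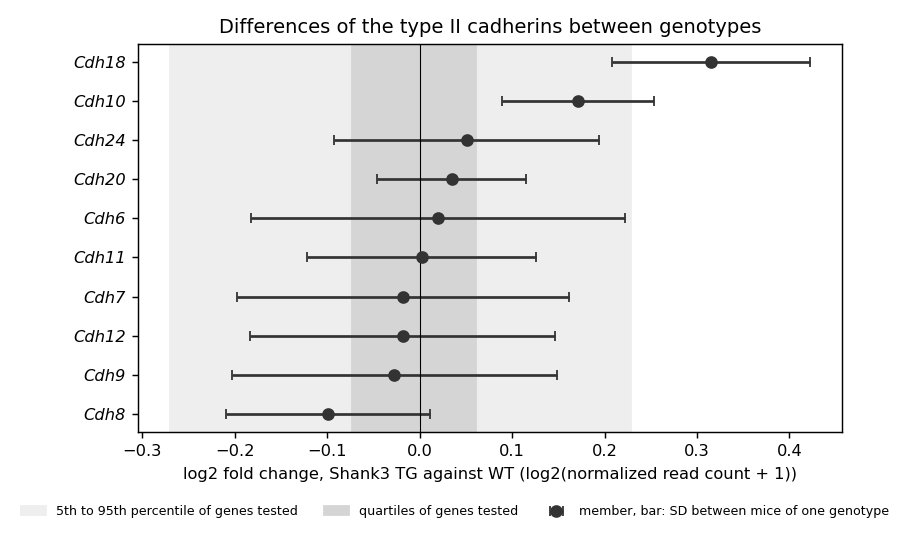
The log2 fold change of each type II cadherin in Shank3 TG against WT striatum (horizontal axis, points), with the SD between mice of one genotype as bars and the quartiles and the 5th to 95th percentile of all genes tested as shaded bands. Cdh18 at 0.32 lies outside the outer band, which ends at 0.23, Cdh10 at 0.17 lies inside it, and the other 8 lie between -0.10 and 0.05. The family was selected on the values of Cdh18, so its place outside the band supports nothing.

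Of the 10 members, 5 lie in 1 stretch of chromosome 15, in the order Cdh6, Cdh9, Cdh10, Cdh12 and Cdh18. Their values come next, ordered along the chromosome, with positions from GENCODE M21 on GRCm38.

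Cdh6 (ENSMUSG00000039385, chr15:13028701-13173675, minus strand), or K-cadherin, marks the embryonic lateral ganglionic eminence from which the striatum arises. It had 302, 246 and 330 normalized read counts in TG replicates 1, 2 and 3 and 249, 323 and 293 in WT replicates 1, 2 and 3. The groups overlapped across nearly their whole range, and the log2 fold change was 0.02 (standard error 0.13, limma adjusted P = 0.993). Cdh6 had the largest SD between mice of one genotype in the family, 0.20 on the log2 scale.

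Cdh9 (ENSMUSG00000025370, chr15:16728756-16857094, plus strand) is known from the synapses that dentate granule cells form in the hippocampus. It had 825, 1100 and 1090 normalized read counts in TG replicates 1, 2 and 3 and 953, 1056 and 1041 in the WT replicates. TG replicate 1 was lowest of the 6 libraries and the other TG libraries were highest, so the log2 fold change was -0.03 (standard error 0.10, limma adjusted P = 0.989), and 0.11 without TG replicate 1. A stretch of 224 exon bases of Cdh9 is shared with a gene on the opposite strand, Gm49127, and reads of the 2 strands cannot be told apart with the library kit that the labels name.

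Cdh10 (ENSMUSG00000022321, chr15:18818947-19014236, plus strand), a cadherin of neurons and of brain endothelium, was the member beside Cdh18 whose groups did not overlap. It had 1330, 1200 and 1378 normalized read counts in TG replicates 1, 2 and 3 and 1196, 1161 and 1109 in WT replicates 1, 2 and 3. Each TG library lay above each WT library, by as little as 4.42 normalized read counts between TG replicate 2 and WT replicate 1. The mean was 1303 ± 91.8 (SD, n = 3) in TG and 1155 ± 43.6 (SD, n = 3) in WT mice, 12.8% higher in TG.

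The log2 fold change of Cdh10 was 0.17 (standard error 0.06), which is larger than its SD of 0.08 between mice of one genotype. It did not pass the adjustment over all genes (limma P = 0.0222 unadjusted, adjusted P = 0.971), and an exact two-sided permutation test of the 6 libraries gave P = 0.1, below which 3 mice against 3 cannot go. Leaving out each library in turn gave log2 fold changes between 0.13 and 0.23, with unadjusted limma P values of 0.00406 when TG replicate 2 was left out and 0.0996 when TG replicate 3 was. Without TG replicate 1 the log2 fold change was 0.16.

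The gene that lies closest to Cdh10 is C030047K22Rik (ENSMUSG00000084873, chr15:18697684-18818774), a long noncoding RNA gene that starts 0.173 kb away and is read in the opposite direction. It had 13.7, 14.6 and 15.6 normalized read counts in TG replicates 1, 2 and 3 and 9.16, 10.3 and 6.87 in WT replicates 1, 2 and 3. These values did not overlap either, but they stand for between 7 and 16 reads per library, and the log2 fold change of 0.69 (standard error 0.29) did not pass the test (limma adjusted P = 0.971). C030047K22Rik averaged 14.6 in TG and 8.77 in WT mice, so it reached the mean of 10 needed for testing only through the TG libraries. Its values therefore lend no support to the Cdh10 difference. The 2 genes share no annotated exon. No other gene outside the family was expressed highly enough to be tested between the start of Cdh6 and the end of Cdh18, a stretch of 10.4 Mb.

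Cdh12 (ENSMUSG00000040452, chr15:20449265-21589533, plus strand), a cadherin of the brain, spans 1140 kb. It had 314, 300 and 315 normalized read counts in TG replicates 1, 2 and 3, and 325, 360 and 263 in WT replicates 1, 2 and 3. The TG libraries lay within the WT range, and the log2 fold change was -0.02 (standard error 0.11, limma adjusted P = 0.993). Cdh12 shares 198 exon bases with Gm49685, a gene on the same strand. Cdh12 is the tested gene nearest to Cdh18 on one side, and it ends 959 kb before Cdh18 starts.

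Cdh18 itself (ENSMUSG00000040420, chr15:22549022-23474418, plus strand) spans 925 kb and ends 66.0 Mb from Shank3, which lies on the same chromosome. On the other side, 1507 kb away, the nearest tested gene is the long noncoding RNA gene Gm2824. It had 269, 227 and 356 normalized read counts in TG replicates 1, 2 and 3 and 266, 255 and 247 in WT replicates 1, 2 and 3, with overlap and a log2 fold change of 0.13 (standard error 0.14, limma adjusted P = 0.971). Neither tested neighbour of Cdh18 passed the test.

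The other 5 members lie on chromosomes 1, 8 and 14, and the groups overlapped in each of them. Cdh8 (ENSMUSG00000036510, chr8:99024471-99416471, minus strand), a synaptic cadherin of neurons in the cortex and striatum, was the member furthest below 0. It had 1844, 2212 and 1907 normalized read counts in TG replicates 1, 2 and 3 and 2010, 2207 and 2155 in WT replicates 1, 2 and 3. TG replicates 1 and 3 were the lowest of the 6 libraries and TG replicate 2 was the highest. The TG mean differed from the WT mean by -6.42%, a log2 fold change of -0.10 (standard error 0.07, limma adjusted P = 0.971). Leaving out 1 library moved it between -0.18 and -0.05.

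Cdh11 (ENSMUSG00000031673, chr8:102632095-102785642, minus strand) is OB-cadherin, first known from osteoblasts and common in mesenchymal cells. It had 1645, 1906 and 1921 normalized read counts in TG replicates 1, 2 and 3 and 1700, 1767 and 1997 in WT replicates 1, 2 and 3. The ranges of the groups largely coincided, and the log2 fold change was 0.0023 (standard error 0.08, limma adjusted P = 0.998).

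Cdh7 (ENSMUSG00000026312, chr1:109982431-110140157, plus strand), known from migrating neural crest cells, had 795, 1118 and 945 normalized read counts in TG replicates 1, 2 and 3. In WT replicates 1, 2 and 3 it had 966, 990 and 911. The TG libraries held both the lowest and the highest value, with an SD of 162 normalized read counts against 40.6 in the WT libraries, around a log2 fold change of -0.02 (standard error 0.10, limma adjusted P = 0.993).

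Cdh20 (ENSMUSG00000050840, chr1:104768529-104995481, plus strand), on the same chromosome as Cdh7, had 599, 528 and 561 normalized read counts in TG replicates 1, 2 and 3 and 531, 580 and 536 in the WT replicates. It varied least between mice of one genotype (SD 0.08 on the log2 scale), and TG replicate 1 was its highest library and TG replicate 2 its lowest. The log2 fold change was 0.03 (standard error 0.07, limma adjusted P = 0.983).

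Cdh24 (ENSMUSG00000059674, chr14:54631231-54641364, minus strand) is the shortest member, with a span of 10.1 kb. It had 378, 302 and 335 normalized read counts in TG replicates 1, 2 and 3 and 306, 313 and 359 in the WT replicates. As with Cdh20, TG replicate 1 was highest and TG replicate 2 lowest, and the log2 fold change was 0.05 (standard error 0.10, limma adjusted P = 0.983).

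Levels of different members can be compared once divided by exon length. Per kb of annotated exon, Cdh9 had the highest level, 286 normalized read counts per kb over the 6 libraries, followed by Cdh8 with 266 and Cdh11 with 205. Cdh20 (139), Cdh10 (122), Cdh18 (107), Cdh24 (95.2) and Cdh7 (95.1) formed a middle range in normalized read counts per kb, and Cdh12 (49.6) and Cdh6 (32.2) were lowest. The libraries of Cdh9 and Cdh8 overlapped on this scale, as did each pair of neighbours from Cdh20 down to Cdh7. They did not overlap between Cdh8 and Cdh11, between Cdh11 and Cdh20, between Cdh7 and Cdh12, or between Cdh12 and Cdh6.

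Against the 14915 protein-coding genes tested, the level per kb of Cdh9 stood at the 67.2 percentile, that of Cdh18 at 40.9 and that of Cdh6 at 20.3. For comparison, the level per kb of Cdh2, the type I N-cadherin of neurons, stood at 75.4. Of the summed level per kb of the 10 members, Cdh18 made up 6.89% in WT and 8.42% in TG mice, Cdh10 8.30% and 9.21%, Cdh8 19.8% and 18.2%, and Cdh9 20.8% and 20.2%. The percentiles and these shares use annotated exon length, and the order depends on which length is used. By the longest transcript, Cdh8 (447 normalized read counts per kb) came first, Cdh10 (326) second and Cdh9 (286) behind Cdh11 (323), while Cdh12 and Cdh6 were lowest. By coding length the order began with Cdh8 (858 normalized read counts per kb), Cdh11 (763), Cdh10 (520) and Cdh9 (428), and it ended with the same 2 genes. The share of Cdh10 in the summed level per kb was then 14.98% in WT and 16.5% in TG mice by the longest transcript, and 12.9% and 14.4% by coding length. That of Cdh18 was 7.73% and 9.37% by the longest transcript, and 4.85% and 5.94% by coding length.

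**Figure D3:**
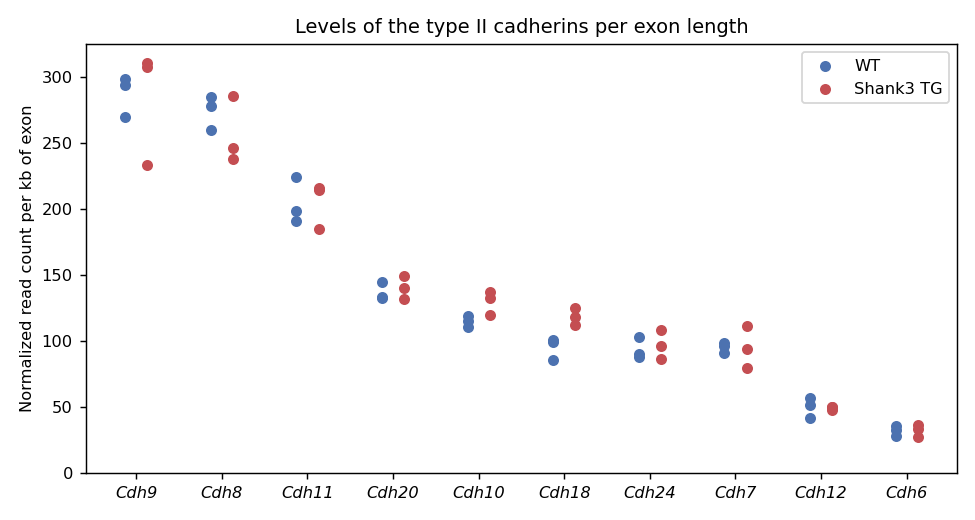
Level of each type II cadherin as normalized read count per kb of annotated exon (vertical axis, from 0), with 1 point per library in WT and Shank3 TG mice and genes in falling order of the mean over 6 libraries. Cdh9, Cdh8 and Cdh11 lie above 180 in every library, and Cdh12 and Cdh6 lie below 60.

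Some members were high in libraries in which others were low, within as well as between the genotypes. In TG replicate 1, the library with the lowest sum of spiny neuron markers, Cdh7, Cdh8, Cdh9 and Cdh11 were at their lowest of the 6 libraries, and Cdh20 and Cdh24 were at their highest. In TG replicate 2, with the highest spiny neuron sum, Cdh7, Cdh8 and Cdh9 were at their highest and Cdh6, Cdh20 and Cdh24 at their lowest. The largest of these shifts was in Cdh9, which was 0.29 below its mean over 6 libraries on the log2 scale in TG replicate 1. Cdh18 did not follow this order, with its 2 highest libraries in TG replicates 3 and 1 and its lowest in WT replicate 1.

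Over the 6 libraries, the level of Cdh8 had a Pearson correlation of 0.86 with the spiny neuron sum (exact permutation P = 0.0222, Spearman 0.83, P = 0.0583), and 0.63 without the 2 libraries farthest from the median, TG replicates 1 and 2. Cdh20 had a Pearson correlation of -0.84 with it (exact permutation P = 0.0347, Spearman -0.89, P = 0.0333), and -0.49 without the same 2 libraries. With the cortical sum, Cdh8 had a Pearson correlation of -0.78 (exact permutation P = 0.0583, Spearman -0.94, P = 0.0167). It was -0.99 without the 2 libraries farthest from the median of that sum, TG replicate 2 and WT replicate 3. The 2 sums ran in opposite directions: TG replicate 1 had the lowest spiny neuron and the highest cortical sum, and TG replicate 2 the reverse. The correlations of a member with the 2 sums are therefore not separate relations. With the spiny neuron sum, the correlation of Cdh7 was 0.78 and turned to -0.65 without TG replicates 1 and 2. For Cdh9, 0.77 turned to -0.16 without the same libraries, so both correlations rest on TG replicates 1 and 2. Cdh10 had a Pearson correlation of -0.73 with the spiny neuron sum (exact permutation P = 0.0986, Spearman -0.54, P = 0.297), and -0.83 without TG replicates 1 and 2. With the cortical sum, that of Cdh10 was 0.55 (exact permutation P = 0.240, Spearman 0.60, P = 0.242), and 0.87 without TG replicate 2 and WT replicate 3. Cdh18 had a correlation of -0.35 with the spiny neuron sum and 0.05 with the cortical sum. Of the 20 relations computed, of 10 members with both marker sums, 0 passed an adjusted P value of 0.05 (smallest adjusted exact permutation P = 0.282 for Pearson and 0.333 for Spearman correlations), and they were looked for after the values had been seen.

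**Figure D4:**
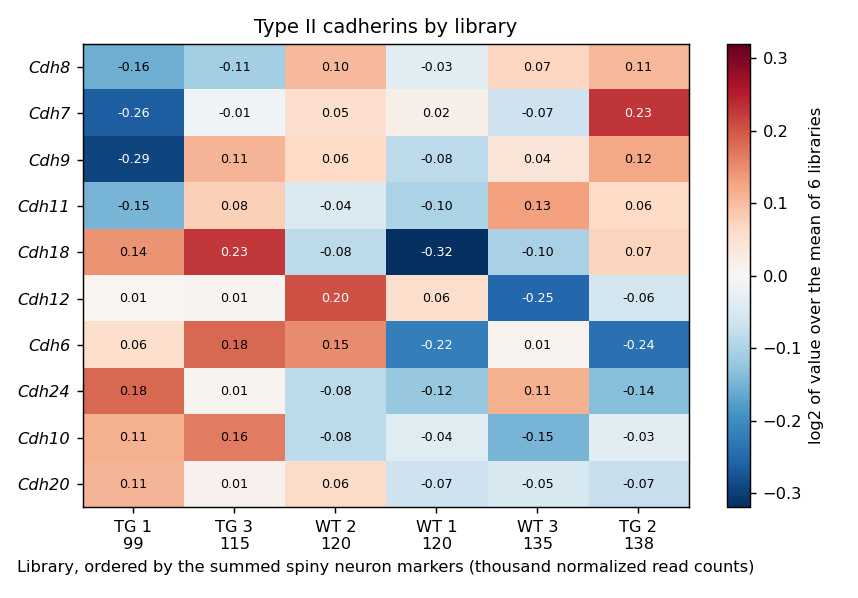
Heat map of the log2 value of each type II cadherin over its mean of 6 libraries (colour and printed number), with libraries from left to right in rising order of the summed spiny neuron markers and genes ordered by their correlation with that sum. Cdh8, Cdh7, Cdh9 and Cdh11 are lowest in TG replicate 1 at the left, Cdh20 and Cdh24 are highest there, and Cdh18 is above 0 in the 3 TG libraries and below 0 in the 3 WT libraries.

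With the spiny neuron sum as a covariate, a setting added after the data were seen, the log2 fold change of Cdh10 was 0.13 (limma adjusted P = 0.686) and that of Cdh18 0.31. With the cortical sum they were 0.18 (limma adjusted P = 0.838) and 0.32. The part of the marker levels in the other members' values was not tested further.

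The genes that work with these cadherins were described from lists of whole groups. Of 8 other classical cadherins, 7 were tested, 3 with a higher and 4 with a lower mean in TG mice, 0 passed an adjusted P value of 0.05 by limma (0.00568% of all genes tested did) and 1 had an unadjusted P value under 0.05 (4.31% of all genes tested did). Their median log2 fold change was -0.05. The highest levels per kb were those of Cdh2, with 3258 ± 128 normalized read counts in TG and 3160 ± 100 in WT mice (SD, n = 3, log2 fold change 0.04), and Cdh22, with 1152 ± 174 and 1231 ± 53.0 (SD, n = 3, log2 fold change -0.11). Cdh5, the cadherin of endothelial junctions, Cdh19 of glial cells and Cdh22 are also often classed as type II, and their log2 fold changes were -0.05, 0.08 and -0.11, with overlap in each. The groups did not overlap in 1 of the 7, against 10.1% of all genes tested. That gene was Cdh15, the cadherin of muscle, named for its values, with 55.0 ± 8.63 in TG and 77.1 ± 6.45 normalized read counts in WT mice (SD, n = 3). Its log2 fold change was -0.49 (standard error 0.17, limma adjusted P = 0.971).

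All 9 catenins and related armadillo proteins, which bind cadherin tails, were tested, and 2 had a higher and 7 a lower mean in TG mice, with a median log2 fold change of -0.06. Limma gave 0 of the 9 a P value under 0.05, before or after adjustment. The groups did not overlap in 3 of them, where 10.1% of the genes tested did not: Ctnna2 and Ctnnb1 were higher and Ctnnd2 lower in TG mice, with small log2 fold changes of 0.05, 0.04 and -0.06. The highest levels per kb were those of Ctnnb1, or β-catenin, with 13440 ± 147 normalized read counts in TG and 13074 ± 59.7 in WT mice (SD, n = 3), and Pkp4, with 7675 ± 449 and 7901 ± 177 (SD, n = 3, log2 fold change -0.04).

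Of 6 other proteins of cadherin junctions, 4 were higher and 2 lower on average, with overlap in each, and limma gave 0 of them a P value under 0.05 before or after adjustment, with a median log2 fold change of 0.04. Among them Tjp1 and Afdn, scaffold proteins that tie junctions to actin, had the highest levels per kb, with log2 fold changes of -0.06 and 0.06. Of 6 proteases and protease subunits that mature or cleave cadherins, 2 were higher and 4 lower, again with overlap in each and 0 past either P value, and a median log2 fold change of -0.03. Psenen and Ncstn, subunits of γ-secretase, had the highest levels per kb there, with log2 fold changes of -0.07 and 0.01. Furin had 1045 ± 92.6 normalized read counts in TG and 1063 ± 40.3 in WT mice (SD, n = 3), a log2 fold change of -0.03.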

How the data were processed

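Striatal RNA of 3 Shank3 TG and 3 WT mice was sequenced, with groups taken from GEO's titles. As the paper's methods and the submitters' processing notes state, the authors trimmed reads with Trimmomatic (0.35), mapped them to GRCm38 with TopHat2 (2.1.0), obtained gene counts with HTSeq and scaled these by DESeq2 size factors. The deposited signal is this normalized read count, not a raw count. Whether counting used strand is not given in the sources used here. Dividing by the smallest value above 0 gave whole reads for 100% of values in each library (within 0.01). Totals of 27689589 to 36647626 reads per library limit the precision of low genes.

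Of the identifiers, 45143 were matched to GENCODE M21. TG was compared with WT by limma (3.58.1, R 4.3.3) on log2(value + 1) with a variance trend. The 17605 genes averaging 10 or more were tested, and P values were adjusted by Benjamini and Hochberg's method, with a threshold of 0.05. The paper's methods use DESeq2, which needs counts and was run as an alternative (1.42.0) on the recovered reads, as were edgeR (4.0.16) and limma-voom. Scaling by TMM or by library totals, dropping the filter or raising it to 50, pseudocounts of 0.5 and 5, a threshold of 0.1, omitting each mouse, a replicate block and other gene lengths were also tried, and, chosen after seeing the data, marker sums as covariates and shares by other lengths. Fits were tested on simulated counts. P values of limma set the difference between the genotypes against the spread between mice of one genotype, which limma steadies with that of all genes tested.

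The members and lists were chosen with earlier results of these data known. Named are all 10 members, in each list of partner genes the 2 with the highest levels per kb, the tested genes nearest to Cdh18 and Cdh10, Shank3 and the most abundant markers. Cdh5, Cdh19, Cdh15, Ctnna2, Ctnnd2, Furin, Tmem72, Zic1, Zic4, Calb2 and the other thalamus, septum and globus pallidus markers are named in addition, after their values were seen. Coding sequences were taken from the longest coding transcript of each gene, and the furin site was predicted as a basic residue and an arginine ahead of the paired tryptophans.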

Additional observations from a re-analysis of the deposited data

How the results depend on the processing

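Among the 9 members other than Cdh18, 0 passed the test in the main analysis and in each alternative run, and their median log2 fold change stayed between -0.03 and 0.02 with each library left out. The number of genes passing among all genes, 1 in the main analysis, was 5 without a filter, 7 by DESeq2, 15 by DESeq2 with a zero-centred prior and an empirical null fitted to the central 75% of statistics, 4 at an adjusted P value of 0.1, 5 with the spiny neuron sum and 3 with the cortical sum as a covariate, and between 1 and 2 with each library left out (2 without TG replicate 2 and 2 without TG replicate 3). Deviations of same-numbered libraries from their group means had correlations of 0.0474, 0.0163 and 0.0928, and those of other TG and WT libraries between -0.125 and 0.0771. With so few libraries behind each group mean, these values cannot decide whether the numbers pair the mice, which the labels do not say. With the replicate number as a block, 1 gene and 0 members passed, with 1024 genes at an unadjusted P value under 0.05 in place of 758, and limma gave Cdh10 an adjusted P = 0.85.

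The direction of members near 0 was not stable. With each library left out, log2 fold changes ran from -0.0800 to 0.139 in Cdh6, from -0.140 to 0.106 in Cdh7, from -0.0987 to 0.109 in Cdh9, from -0.0458 to 0.0750 in Cdh11, from -0.144 to 0.0814 in Cdh12, from -0.0111 to 0.0793 in Cdh20 and from -0.0312 to 0.128 in Cdh24. Cdh11 turned to -0.0011 by edgeR, -0.0035 by voom and -0.0034 with the cortical sum. With the spiny neuron sum, Cdh6 turned to -0.0387, Cdh7 to 0.0705, Cdh9 to 0.0568 and Cdh20 to -0.0057. The cause of these turns was not tested. The adjusted P value of Cdh10 ranged from 0.438 to 1 over the alternatives, and its direction held in each. The comparison rests on 3 mice a group and on between 218 and 2360 reads per member and library, and the smallest difference it can detect was not measured. The SD of a member between mice of one genotype had a median of 0.13 on the log2 scale.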
